A study of Sus scrofa with 18 samples.

Results

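The insulin-like growth factor system was followed here through 10 genes: the ligands IGF1 and IGF2, the receptors IGF1R and IGF2R, and the binding proteins IGFBP2, IGFBP3, IGFBP4, IGFBP5, IGFBP6 and IGFBP7. They were taken by name, and all 10 were found among the 28210 RefSeq genes placed on chromosomes 1 to 18, X and Y of Sscrofa11.1. The chromatin of these genes was read from H3K4me3 and H3K27ac peaks in the myometrium of Yorkshire gilts, taken on day 15 from the side of the uterus where the mesometrium attaches. The tissues were circular muscle of naturally mated pregnant gilts (GD15M_CM), longitudinal muscle of pregnant gilts (GD15M_LM) and circular muscle of gilts on the same day of the oestrous cycle, which served as the non-pregnant group (CD15M_CM). Each tissue had n = 2 gilts per mark and its own IgG libraries, and both gilts were pooled before peak calling, so 1 list of peaks per mark and tissue was available. No value below therefore has an error, and how far 2 gilts of a group differ is not known. According to the methods, circular and longitudinal muscle were dissected from the same uterine samples, so the pregnant layers may share gilts, and the pooled lists cannot use this.

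IGF1 and IGF2 are secreted peptides that drive growth and survival of many cell types, including uterine smooth muscle. Both signal through IGF1R, a receptor tyrosine kinase, while IGF2R takes up IGF2 and carries it to lysosomes. The binding proteins hold the ligands in blood and tissue fluid, and can block or prolong their action. H3K4me3 is a histone mark of active or poised promoters, while H3K27ac is found at active promoters and also at enhancers. The paper profiled them with CUT&Tag, in which a protein A-Tn5 fusion cuts the DNA around antibody-bound nucleosomes.

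For each gene, all peaks between 3 kb before and 3 kb after its RefSeq model were collected. The strength of a peak is its fold enrichment over IgG, given here as a percentile among all peaks of the same mark and tissue, since fold enrichments of separate lists have no common scale. The percentile of a gene is that of its highest peak, and a gene without a peak has 0. A difference of at least 10 percentile points between 2 tissues was called. The strand of the genes was not used here, so positions are given from the gene end with the lower coordinate, and exons, introns and promoters were not told apart.

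The labelled tissue was checked against marker genes. All 8 smooth muscle markers, MYH11, ACTA2, TAGLN, CNN1, DES, SMTN, LMOD1 and MYL9, had peaks of both marks in every tissue. Their median H3K4me3 percentile was 77.0 in GD15M_CM, 91.0 in GD15M_LM and 88.9 in CD15M_CM. Markers of other cells were also marked. The 5 uterine epithelium markers had a median H3K4me3 percentile of 79.4 in GD15M_CM and 78.5 in CD15M_CM but 59.0 in GD15M_LM. Their median H3K27ac percentile was 76.1, 64.2 and 7.45 for GD15M_CM, CD15M_CM and GD15M_LM, and KRT18 and KRT19 had no H3K27ac peak in GD15M_LM. Fibroblast markers had H3K4me3 medians of 73.5 in GD15M_CM, 82.2 in GD15M_LM and 82.1 in CD15M_CM. For the 4 T cell markers the H3K4me3 medians were 67.0, 59.7 and 54.7 in the same order of tissues. In whole tissue, fewer cells carrying a mark and less of the mark per cell cannot be told apart, and the part of these cell markers in the results below was not tested.

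All 10 genes had an H3K4me3 peak in each of the 3 tissues. Over all RefSeq genes the share with such a peak was 60.0% in GD15M_CM, 61.0% in GD15M_LM and 61.7% in CD15M_CM. An H3K27ac peak was present at 8 genes in GD15M_CM, 7 in GD15M_LM and 9 in CD15M_CM, against 62.9%, 61.3% and 64.9% of all genes. The genes without H3K27ac were IGF2 in every tissue, IGFBP3 in both pregnant layers and IGFBP2 in GD15M_LM. Among protein-coding genes only, the shares with a peak were higher. In GD15M_CM, GD15M_LM and CD15M_CM they were 73.7%, 74.6% and 75.4% for H3K4me3, and 73.9%, 73.1% and 75.8% for H3K27ac. The median H3K4me3 percentile of the 10 genes was 73.4 in GD15M_CM, 78.3 in GD15M_LM and 77.2 in CD15M_CM, and for all genes with a peak it was 80.9, 79.4 and 81.8. For H3K27ac, with genes lacking a peak counted as 0, the medians were 71.2, 74.1 and 83.3, while those of all RefSeq genes were 61.7, 54.7 and 62.6. Among genes with a peak the all-gene H3K27ac medians were 86.9, 83.2 and 85.2. No H3K27ac median over only those of the 10 genes with a peak was taken to set beside them. The highest H3K4me3 rank was that of IGF1R in both circular lists and of IGF1 in GD15M_LM, and the lowest that of IGFBP3 in both pregnant layers and of IGFBP2 in CD15M_CM.

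**Figure D1:**
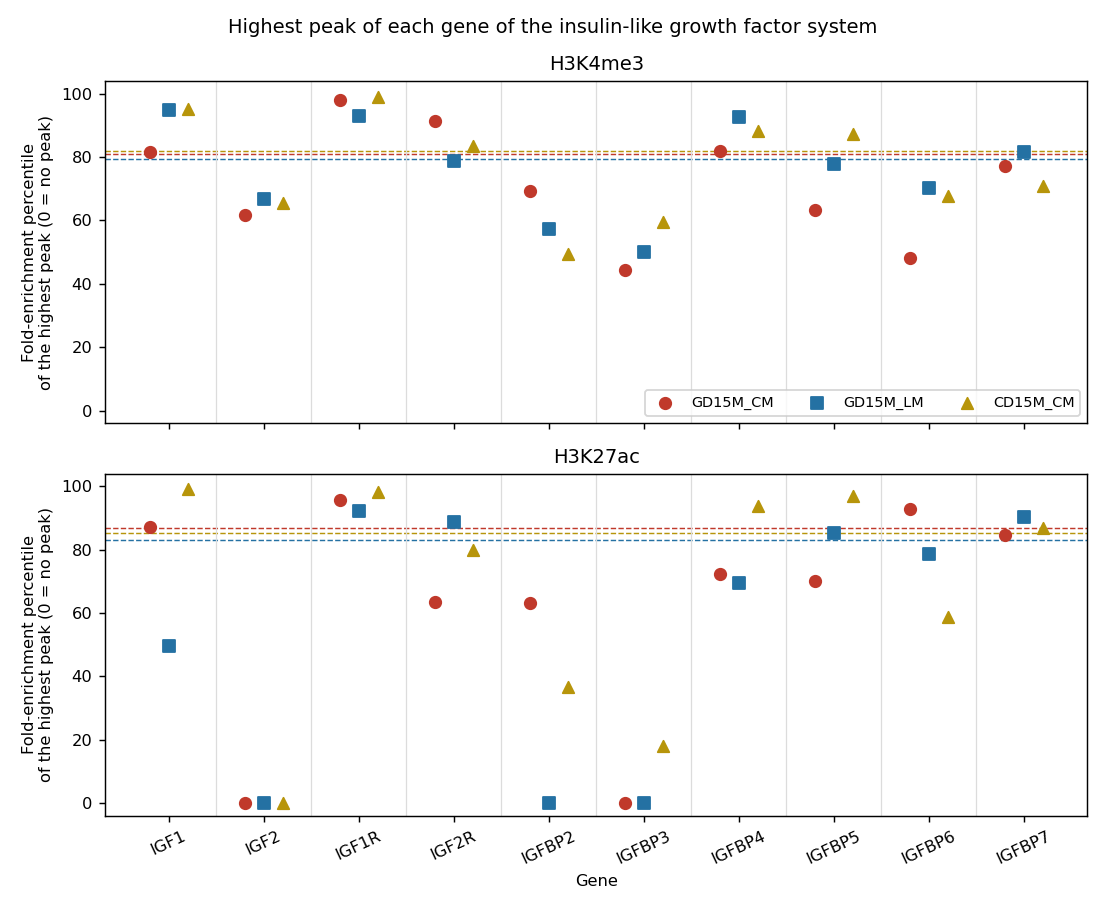
Fold-enrichment percentile of the highest H3K4me3 peak (upper panel) and H3K27ac peak (lower panel) of each of the 10 genes in GD15M_CM (circles), GD15M_LM (squares) and CD15M_CM (triangles). Each point is 1 pooled list, so there are no error bars, and the dashed lines are the medians of all RefSeq genes with a peak. All H3K4me3 points lie above 40, whereas IGF2 stands at 0 for H3K27ac in every tissue.

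IGF1 (chromosome 5, 81762027 to 81909253) carried its main H3K4me3 region inside the gene model, from 81775133 to 81780616, which is 13.1 to 18.6 kb from the lower-coordinate end. The H3K4me3 percentile was 81.5 in GD15M_CM, 94.8 in GD15M_LM and 95.2 in CD15M_CM, with fold enrichments of 16.1, 30.0 and 29.8. Pregnant circular muscle was thus the low tissue, and the other 2 did not reach a called difference. The same peak was 2817 bp long in GD15M_CM, against 5484 bp and 4965 bp in GD15M_LM and CD15M_CM, and in GD15M_CM 2 shorter peaks followed it within the same region. By length these peaks ranked at percentiles 84.5, 96.9 and 96.1 of their lists.

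H3K27ac at IGF1 followed another order. The highest peak in each tissue lay within the main H3K4me3 region and had a percentile of 87.2 in GD15M_CM, 49.5 in GD15M_LM and 99.1 in CD15M_CM. Longitudinal muscle, where H3K4me3 was high, was here the low tissue. Of 13 separate H3K27ac sites along the gene, 2 were found in all 3 tissues, 4 in GD15M_CM alone, 4 in CD15M_CM alone and 0 in GD15M_LM alone. Beyond 20 kb from the lower-coordinate end, H3K27ac peaks were listed in both circular lists, at different positions, and not in GD15M_LM. However, the whole GD15M_LM list for this mark is shorter, with 57010 peaks against 79877 in GD15M_CM and 82037 in CD15M_CM. No share over all genes was computed for these site counts. The difference between GD15M_CM and GD15M_LM rested on peaks of moderate strength: no IGF1 peak of either tissue passed a strict threshold of −log10 p of at least 10 with a fold enrichment of at least 5.

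The other ligand, IGF2 (chromosome 2, 1469183 to 1496417), is an imprinted gene that lies next to INS, which starts 0.424 kb beyond the upper end of IGF2. Its main H3K4me3 region spanned 1476817 to 1480681, inside the gene model. The percentile was 61.7 in GD15M_CM, 66.8 in GD15M_LM and 65.6 in CD15M_CM, and the fold enrichment was 7.33, 12.9 and 9.66. These ranks lay close together, and no pair of tissues differed by 10 points. The peak in GD15M_LM, 3843 bp, was longer than that in GD15M_CM (2369 bp) and that in CD15M_CM (2736 bp). The strict threshold and the joining of neighbouring peaks each brought the difference between both pregnant layers past the call, to −17.8 and −11.4 points (GD15M_CM minus GD15M_LM).

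No H3K27ac peak was called within 3 kb of IGF2 in any tissue. Among the 16367 RefSeq genes with H3K4me3 peaks in all 3 tissues, 1.88% lacked H3K27ac throughout in the same way, and IGF2 was the single such gene of the 10. The nearest H3K27ac peak lay 29.8 kb away in GD15M_CM, 27.8 kb in GD15M_LM and 24.8 kb in CD15M_CM. All of these were weak, with percentiles of 19.8, 11.2 and 5.68. INS, the insulin gene, had no peak of either mark.

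**Figure D2:**
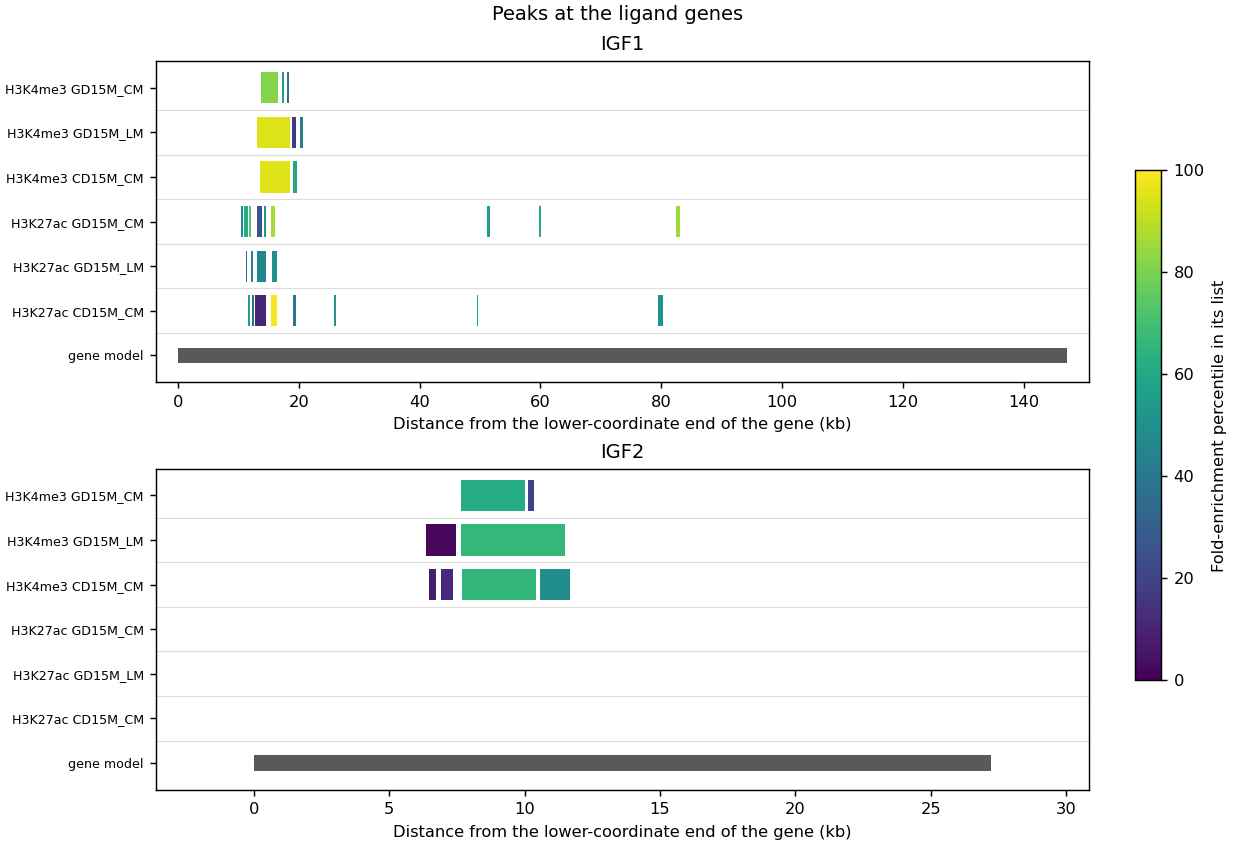
Peaks along IGF1 (upper panel) and IGF2 (lower panel), drawn to scale with distance in kb from the lower-coordinate end of the gene. Each row is 1 list and the colour of a bar is the percentile of the peak. The IGF1 H3K4me3 peak of GD15M_CM is shorter and ranks lower than those of the other tissues, and the H3K27ac rows of IGF2 are empty.

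IGF1R, the signalling receptor, is the longest of the genes (307.4 kb, chromosome 1, 137383623 to 137691038). Its main H3K4me3 region, 137686672 to 137693045, covered the upper end of the gene. The percentile there was 98.2 in GD15M_CM, 92.9 in GD15M_LM and 98.9 in CD15M_CM. This was the highest H3K4me3 rank of the 10 genes in both circular lists, and no pair of tissues differed by 10 points. The peak was broad in every tissue, with lengths of 5746, 6374 and 5773 bp that ranked at percentiles 98.3, 98.1 and 97.6 of all lengths.

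Within the IGF1R gene model, 2 more strong H3K4me3 sites were found in every tissue, about 93 and 106 kb from the lower-coordinate end. The first had percentiles of 70.8 in GD15M_CM, 74.9 in GD15M_LM and 65.9 in CD15M_CM. Those of the second were 80.6, 78.3 and 77.7. RefSeq places no other gene there, and H3K27ac peaks overlapped both sites in all 3 tissues. At the first site their percentiles were 89.4 in GD15M_CM, 66.4 in GD15M_LM and 90.2 in CD15M_CM.

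At IGF1R the highest H3K27ac peak overlapped the main H3K4me3 region, with percentiles of 95.6 in GD15M_CM, 92.1 in GD15M_LM and 98.2 in CD15M_CM. Along the gene, 50 H3K27ac peaks were listed in GD15M_CM, 30 in GD15M_LM and 53 in CD15M_CM. They covered 12.6%, 6.85% and 14.5% of the window, so the circular lists held the denser pattern. All but 4, 7 and 3 of these peaks lay apart from any H3K4me3 peak of their tissue. Joined over the tissues they formed 69 sites, of which 18 were marked in all 3 tissues, 18 in GD15M_CM alone, 18 in CD15M_CM alone, 11 in both circular lists and 0 in GD15M_LM alone. The GD15M_LM list is the shortest for this mark, with 57010 peaks against 79877 in GD15M_CM and 82037 in CD15M_CM. For these IGF1R counts no share over all genes was computed.

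IGF2R (chromosome 1, 7369485 to 7472480), which clears IGF2, had its main H3K4me3 region at the upper end, from 7470708 to 7473914. The percentile was 91.3 in GD15M_CM, 78.7 in GD15M_LM and 83.6 in CD15M_CM. Pregnant circular muscle ranked highest, and its difference from GD15M_LM, 12.6 points, was called. The fold enrichments were nearly level, 21.1, 19.1 and 20.4, while the fold enrichment exceeded by 10% of all peaks was 20.3 in GD15M_CM, 25.6 in GD15M_LM and 24.8 in CD15M_CM. When peaks were ranked by −log10 p, 8.07 points remained.

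H3K27ac at IGF2R went in the opposite direction. Its percentile was 63.5 in GD15M_CM, 88.7 in GD15M_LM and 79.9 in CD15M_CM. GD15M_CM was lower than both other tissues by called differences of 25.2 and 16.4 points. In GD15M_LM and CD15M_CM the highest peak sat at the main H3K4me3 region, while in GD15M_CM it lay 62.2 kb from the lower-coordinate end and the H3K27ac peak at the main region had a percentile of 57.9. Neither GD15M_CM nor CD15M_CM had an IGF2R H3K27ac peak past the strict threshold.

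**Figure D3:**
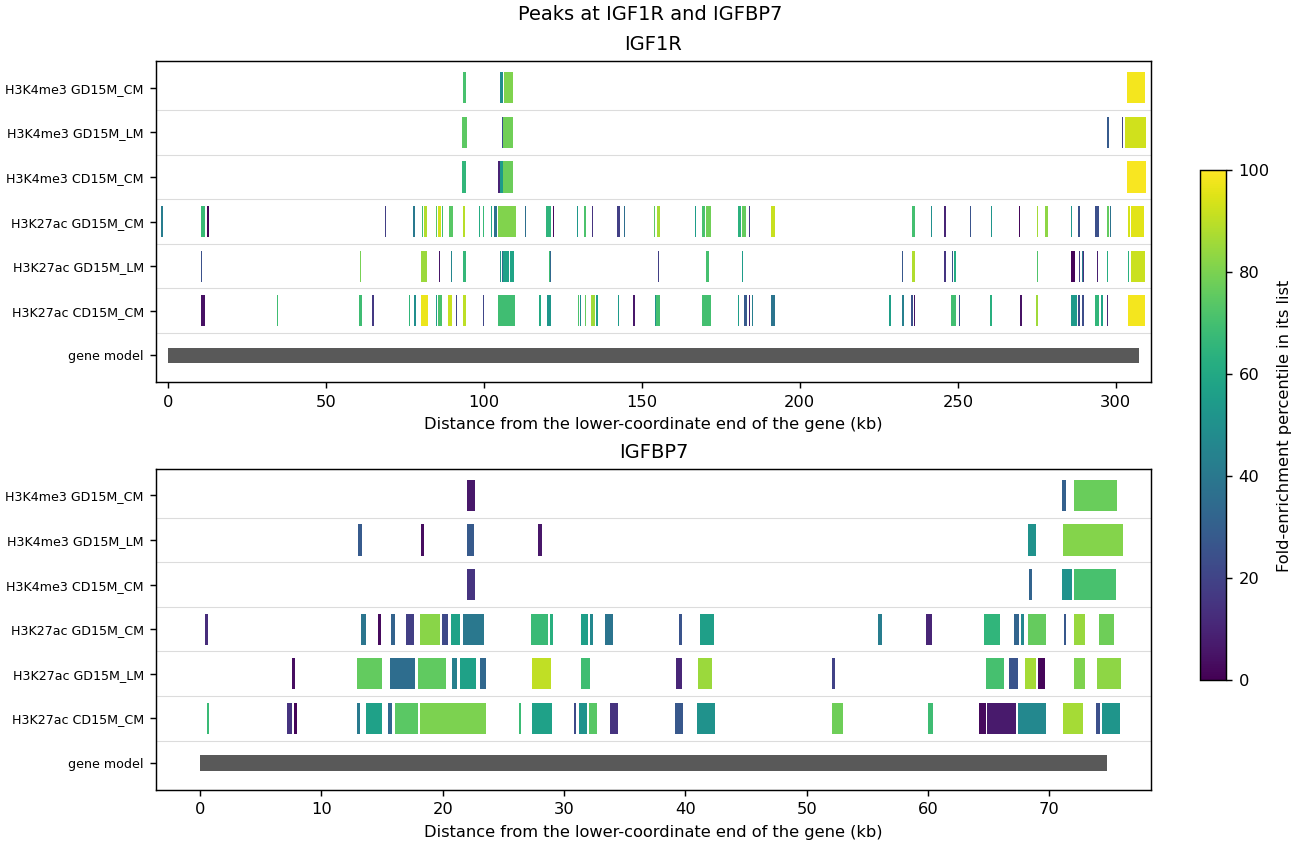
Peaks along IGF1R (upper panel) and IGFBP7 (lower panel), with distance in kb from the lower-coordinate end of the gene and colour for the percentile of the peak in its list. At IGF1R the H3K27ac row of GD15M_LM holds 30 peaks against 50 and 53 in the circular lists, while the H3K4me3 rows look alike.

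IGFBP4, whose product mostly restrains the ligands until it is cut by the protease PAPPA, lies on chromosome 12 from 21966524 to 21980043. Its main H3K4me3 region, 21976096 to 21982569, spanned the upper end of the gene. The percentile was 82.0 in GD15M_CM, 92.6 in GD15M_LM and 88.2 in CD15M_CM. GD15M_CM was lowest, by a called 10.6 points from GD15M_LM and by 6.19 points from CD15M_CM. The peak was 5191, 6474 and 5402 bp long, above percentile 97 of all lengths in each tissue.

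H3K27ac spread widely over the IGFBP4 window, covering 48.8% of it in GD15M_CM, 46.4% in GD15M_LM and 54.9% in CD15M_CM. Its highest peak had a percentile of 72.3, 69.6 and 93.8. The cyclic tissue stood above both pregnant layers, and its highest peak was a single stretch of 7759 bp over the upper part of the gene. The difference between GD15M_CM and CD15M_CM, 21.6 points, was −9.35 points (GD15M_CM minus CD15M_CM) when ranked by −log10 p.

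IGFBP5 (chromosome 15, 118861816 to 118877787), a conserved binding protein that attaches to extracellular matrix and is abundant in mesenchymal cells, showed the largest H3K4me3 difference of the 10 genes between GD15M_CM and CD15M_CM. The percentile was 63.3 in GD15M_CM, 77.8 in GD15M_LM and 87.4 in CD15M_CM, with fold enrichments of 7.96, 18.7 and 22.9. GD15M_CM was lower than CD15M_CM by 24.2 points and lower than GD15M_LM by 14.6 points. The main region, 118874392 to 118879831 at the upper end of the gene, was a single peak in GD15M_LM and CD15M_CM and was split into 2 in GD15M_CM.

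The H3K27ac percentile of IGFBP5 had the same order between the circular tissues, 70.1 in GD15M_CM and 96.8 in CD15M_CM, and was 85.4 in GD15M_LM. The peaks covered 31.3% of the window in GD15M_CM, 32.5% in GD15M_LM and 52.3% in CD15M_CM. Cyclic circular muscle thus had the strongest and the most extended H3K27ac at this gene, with 4 of 11 sites found there alone. The difference between GD15M_CM and CD15M_CM kept its direction and stayed called for both marks under each of the 8 other ways of counting and ranking peaks, whereas the 15.3 points between both pregnant layers became −8.92 points (GD15M_CM minus GD15M_LM) at the main H3K4me3 region and 0 with the strict threshold.

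IGFBP2 lies 10.8 kb from IGFBP5 on chromosome 15 (118822092 to 118850985) and had the opposite pattern. Its H3K4me3 region, 118821760 to 118823586, covered the lower-coordinate end, so the marked regions of the neighbours lie at the far ends of the pair. The percentile was 69.4 in GD15M_CM, 57.3 in GD15M_LM and 49.5 in CD15M_CM. Pregnant circular muscle was the high tissue, by 19.9 points over CD15M_CM and 12.1 points over GD15M_LM. The fold enrichments were 10.9, 7.84 and 4.63.

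H3K27ac at IGFBP2 was weak. Its percentile was 63.1 in GD15M_CM and 36.7 in CD15M_CM, and GD15M_LM had no peak. At the main H3K4me3 region an H3K27ac peak was listed in GD15M_CM only, since the highest peak of CD15M_CM lay just beyond the upper end of the gene. IGFBP2 was the only one of the 10 genes called higher in GD15M_CM for both marks and in both comparisons. None of its H3K27ac peaks passed the strict threshold. As given above, uterine epithelium markers also ranked higher in GD15M_CM than in GD15M_LM, and their part in this difference was not tested.

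**Figure D4:**
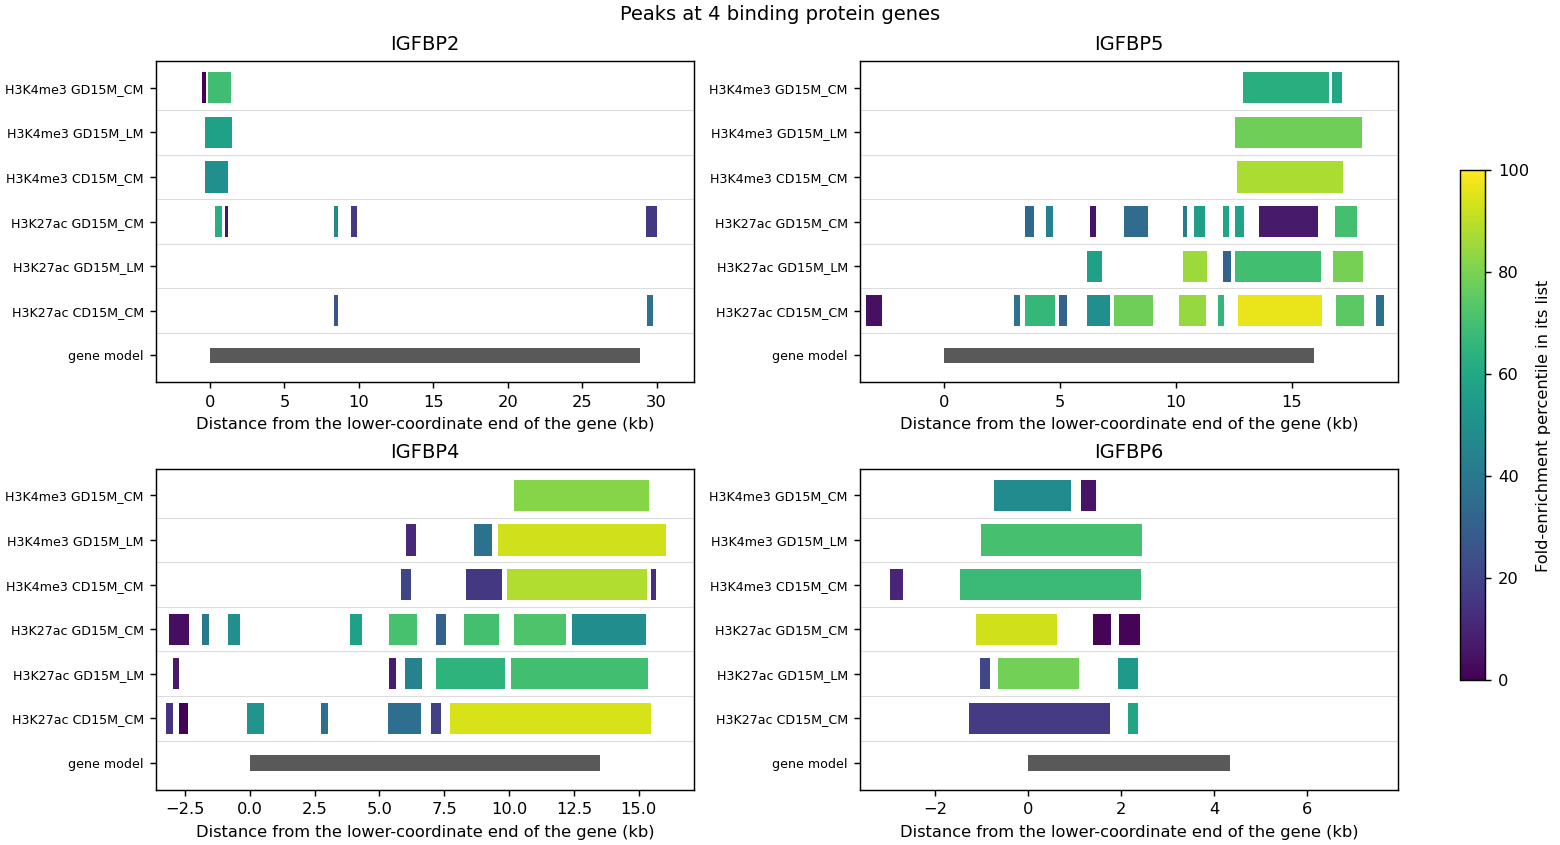
Peaks along IGFBP2, IGFBP5, IGFBP4 and IGFBP6, with distance in kb from the lower-coordinate end of the gene and colour for the percentile of the peak in its list. The H3K4me3 bar of GD15M_CM is the highest of the 3 tissues at IGFBP2 and the lowest at the other 3 genes, and IGFBP2 has no H3K27ac bar in GD15M_LM.

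IGFBP6, a binding protein with preference for IGF2, lies on chromosome 5 from 18352884 to 18357225, and SOAT2 begins 1.72 kb beyond it. Its main H3K4me3 region, 18351426 to 18355339, covered the lower-coordinate end and did not reach SOAT2. The percentile was 48.0 in GD15M_CM, 70.4 in GD15M_LM and 67.6 in CD15M_CM. GD15M_CM was low by 22.3 and 19.6 points, and its peak of 1650 bp was shorter than those of GD15M_LM (3474 bp) and CD15M_CM (3889 bp). Ranking by −log10 p left −9.02 points (GD15M_CM minus GD15M_LM).

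For H3K27ac, GD15M_CM was instead the highest tissue at IGFBP6, with 92.8 in GD15M_CM, 78.5 in GD15M_LM and 58.7 in CD15M_CM. Pregnant circular muscle ranked above both other tissues by called differences of 14.3 and 34.2 points. In CD15M_CM the region was covered by a peak of 3038 bp with a low fold enrichment of 2.75 and by a shorter peak of 217 bp that gave the percentile. By percentile, GD15M_CM was therefore lowest of the 3 tissues for one mark and highest for the other. By length the H3K27ac order differed, since the peaks covered 24.8% of the window in GD15M_CM, 23.0% in GD15M_LM and 31.5% in CD15M_CM.

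IGFBP3, the main carrier of the ligands in blood, lies on chromosome 18 from 50002921 to 50009425 and was weakly marked. The H3K4me3 percentile was 44.2 in GD15M_CM, 50.1 in GD15M_LM and 59.4 in CD15M_CM, at a region from 50002724 to 50004143. CD15M_CM exceeded GD15M_CM by 15.2 points, and its peak of 1420 bp was longer than the 411 bp in GD15M_CM and 592 bp in GD15M_LM. A single weak H3K27ac peak was listed, in CD15M_CM, at a percentile of 18.2, and it was lost when equal numbers of top peaks were taken. The neighbour IGFBP1, 9.06 kb away, had no peak of either mark in any tissue.

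IGFBP7, a secreted protein of vessels and smooth muscle that binds the ligands only weakly, extends over 74.7 kb of chromosome 8 (56283089 to 56357822). Its main H3K4me3 region lay at the upper end, from 56354189 to 56359158. The percentile was 77.3 in GD15M_CM, 81.5 in GD15M_LM and 70.7 in CD15M_CM. GD15M_CM differed from neither tissue by 10 points, while GD15M_LM and CD15M_CM, which differ in both layer and pregnancy, stood 10.7 points apart. This difference was 5.94 points when ranked by −log10 p, and with the strict threshold GD15M_CM minus CD15M_CM became 16.1 points and GD15M_CM minus GD15M_LM −12.8 points. H3K27ac was extensive, with 25, 18 and 24 peaks covering 21.8%, 24.4% and 32.3% of the window. The percentile of the highest was 84.7, 90.4 and 86.7. Of 17 H3K27ac sites, 9 were shared by all 3 tissues.

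Between pregnant and cyclic circular muscle, the comparison that asks about the state of the gilt, 4 of 10 genes had an H3K4me3 percentile at least 10 points higher in CD15M_CM, namely IGF1, IGFBP3, IGFBP5 and IGFBP6. Over the 17645 genes with a peak in either list this share was 23.9%. IGFBP2 was the 1 gene higher in GD15M_CM, against 12.4% of all genes. For H3K27ac, 5 of the 9 genes with a peak were higher in CD15M_CM (IGF1, IGF2R, IGFBP3, IGFBP4 and IGFBP5) and 2 in GD15M_CM (IGFBP2 and IGFBP6). The shares of all genes were 27.4% and 25.5%. In its own differential analysis of this pair, the paper found very few differing H3K27ac regions, far fewer than H3K4me3 regions. It reported no differing H3K27ac region within 3 kb of the start sites of genes whose expression differed between these tissues. The percentile calls here are not such a test, and large shares of all genes pass them for H3K27ac. The fibroblast markers also had a higher H3K27ac median in CD15M_CM (92.4) than in GD15M_CM (67.3), as did the smooth muscle markers (94.2 and 87.4), and their part in these differences was not tested. IGF1, IGFBP3 and IGFBP5 were higher in CD15M_CM for both marks. Beyond the 4 and 5 genes higher in CD15M_CM, which exceed the background shares, the counts lie close to it, and with 10 genes all of them describe single genes.

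Between the layers of pregnant gilts, 4 genes had a higher H3K4me3 percentile in GD15M_LM (IGF1, IGFBP4, IGFBP5 and IGFBP6), where 20.2% of all genes did, and 2 in GD15M_CM (IGF2R and IGFBP2), where 20.9% did. For H3K27ac, 2 of the 8 genes with a peak were higher in GD15M_LM (IGF2R and IGFBP5) and 3 in GD15M_CM (IGF1, IGFBP2 and IGFBP6). The shares of all genes were 22.5% and 33.8%. IGFBP5 was higher in GD15M_LM and IGFBP2 higher in GD15M_CM for both marks, while IGF1, IGF2R and IGFBP6 were called in opposite directions by H3K4me3 and H3K27ac. Both comparisons share the GD15M_CM lists.

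**Figure D5:**
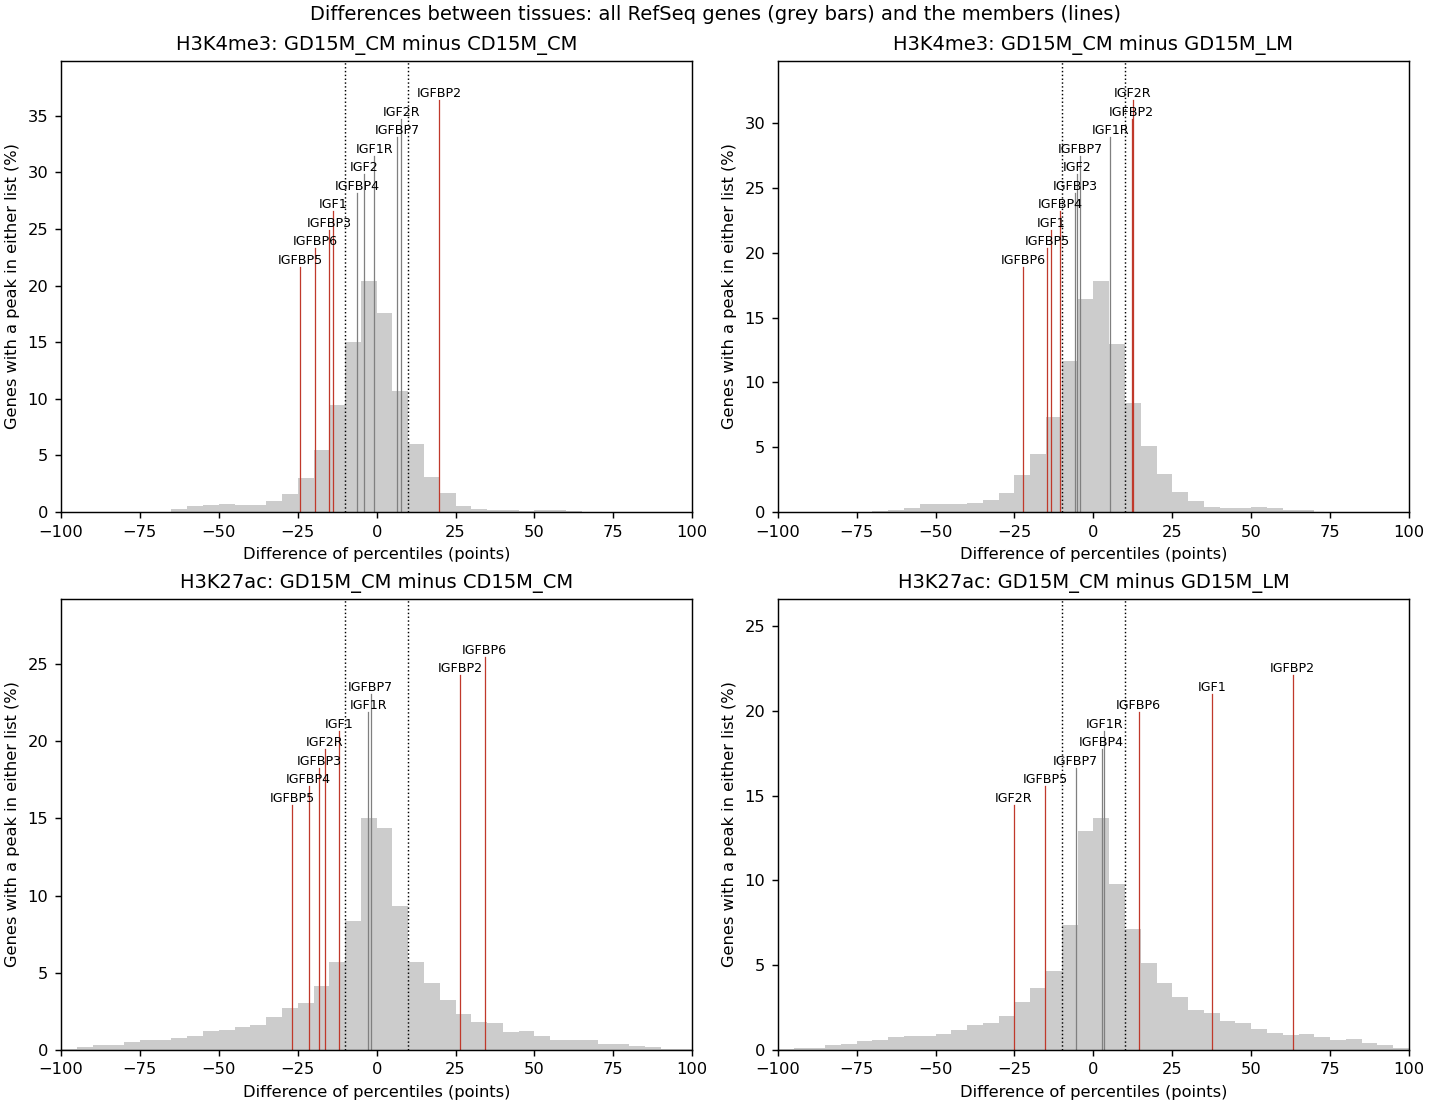
Differences of percentile points for GD15M_CM minus CD15M_CM (left) and GD15M_CM minus GD15M_LM (right), H3K4me3 above and H3K27ac below. Grey bars give the percentage of all RefSeq genes with a peak in either list per bin of 5 points. Vertical lines are those of the 10 genes with a peak in either list (red where called). IGF2 is therefore absent from both lower panels and IGFBP3 from the lower right panel. Dotted lines mark 10 points either side of 0. Line heights have no meaning. IGFBP5 lies at −24.2 and IGFBP2 at 19.9 in the upper left panel.

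Seen over all 3 tissues, GD15M_CM had the lowest H3K4me3 percentile at 6 of 10 genes (IGF1, IGF2, IGFBP3, IGFBP4, IGFBP5 and IGFBP6), against 35.9% of all genes with a peak. This grouping was chosen after the values were seen. CD15M_CM had the highest at 4 genes, against 41.6%. For H3K27ac, GD15M_CM was lowest at 3 of 9 genes, against 28.8%, and CD15M_CM was highest at 5, against 37.0%. The smooth muscle and fibroblast markers had their lowest H3K4me3 medians in GD15M_CM too, as given above. So did the markers of endothelium (4 genes), macrophages (3) and mesothelium (2 placed), with medians of 60.1, 47.1 and 72.9. Longitudinal muscle had 62.5, 54.1 and 80.1 for these classes, and cyclic circular muscle 66.4, 60.8 and 78.3. Uterine epithelium and T cell markers instead had their highest medians in GD15M_CM. The part of any of these markers in the pattern was not tested.

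The sites of the 10 genes were also counted together. Joined over the tissues they formed 28 H3K4me3 sites, of which 16 were marked in all 3 tissues and 0 in GD15M_CM alone. Of 151 H3K27ac sites, 45 were in all 3 tissues, 33 in GD15M_CM alone, 36 in CD15M_CM alone and 2 in GD15M_LM alone. IGF1R by itself held 69 of the 151 sites, with 18 of those in GD15M_CM alone and 18 of those in CD15M_CM alone. H3K27ac peaks without an overlapping H3K4me3 peak numbered 105 of 128 in GD15M_CM, 52 of 78 in GD15M_LM and 106 of 127 in CD15M_CM. The whole H3K27ac list is shortest in GD15M_LM, with 57010 peaks against 79877 in GD15M_CM and 82037 in CD15M_CM. No share over all genes was computed for the counts of this paragraph, so they have no background.

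The wider pathway was described by 34 more genes, of which 32 had a place on these chromosomes. An H3K4me3 peak was present at 26 of them in each tissue, and H3K27ac at 25 in GD15M_CM and 24 in both other tissues. In GD15M_CM, GD15M_LM and CD15M_CM the shares of all genes were 60.0%, 61.0% and 61.7% for H3K4me3. For H3K27ac they were 62.9%, 61.3% and 64.9%. Among protein-coding genes only, they were 73.7%, 74.6% and 75.4% for H3K4me3, and 73.9%, 73.1% and 75.8% for H3K27ac. IGFBP1, IGFBPL1, INS, PAPPA2 and IGF2BP1 had no peak in any list. Between GD15M_CM and CD15M_CM, 3 of the 26 genes were called higher in GD15M_CM and 6 in CD15M_CM for H3K4me3, and 6 of 25 each way for H3K27ac. Over all genes, the shares higher in GD15M_CM and in CD15M_CM were 12.4% and 23.9% for H3K4me3, and 25.5% and 27.4% for H3K27ac. Between the layers the H3K4me3 calls were 2 in GD15M_CM and 9 in GD15M_LM, and the H3K27ac calls 9 and 5. The shares of all genes for these calls were 20.9% and 20.2% for H3K4me3, and 33.8% and 22.5% for H3K27ac.

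Among regulators of the ligands, STC1 and STC2, stanniocalcins that inhibit the proteases which free the ligands from binding proteins, ranked low in GD15M_CM. STC1 had H3K4me3 percentiles of 23.8 in GD15M_CM, 54.0 in GD15M_LM and 57.9 in CD15M_CM, and STC2 had 47.7, 78.7 and 63.8. HTRA1, a secreted protease that can cut binding proteins, had 74.9, 90.0 and 94.5. GD15M_CM was the lowest tissue at these 3 genes, while the order of the other 2 tissues was not the same at STC2. These genes were named for their large differences from GD15M_CM, so they add no support to the pattern above. Of the 26 pathway genes with a peak, 12 were lowest in GD15M_CM, against 35.9% of all genes. For H3K27ac, STC2 had 49.9, 90.9 and 53.5, HTRA1 had 87.1, 84.9 and 88.9, and STC1 had no peak. The H3K4me3 percentiles of GHR, the growth hormone receptor, were 76.3, 94.3 and 80.6.

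Downstream of the receptor, the docking protein gene IRS2 went the other way for H3K4me3, with percentiles of 92.2 in GD15M_CM, 81.6 in GD15M_LM and 69.2 in CD15M_CM. For H3K27ac the largest differences of GD15M_CM from either other tissue were at MTOR, SHC1, PIK3CA and ADAM12. MTOR, a growth-controlling kinase, had 96.2, 84.4 and 42.6, and the adaptor gene SHC1 had 96.3, 50.1 and 76.7. PIK3CA, the catalytic subunit of a lipid kinase, had an H3K27ac peak in GD15M_CM only (62.6) and no H3K4me3 peak in any tissue. ADAM12, a metalloprotease gene, was low in GD15M_CM, with 32.0, 90.2 and 84.2.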

How the data were processed

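H3K4me3 and H3K27ac were profiled by the authors with CUT&Tag in 12 libraries beside 6 IgG libraries, n = 2 gilts per tissue. Per the labels and the paper's methods, the authors mapped reads to Sus scrofa 11.1 with BWA 0.7.17-r1188, filtered out duplicates and poorly mapped reads (SAMtools 1.9, Picard 2.8.3) and used MACS2 2.2.6 on the pooled replicates. The deposited lists give for each peak the fold enrichment over IgG, a ratio whose scaling is not given in the sources used here. They also hold −log10 p and −log10 q values written by MACS2 for the authors. The headers of these 2 columns were unreadable. The first was identified by its identity with the peak table of the paper, and the second was inferred and used for no result. Library depth is not in the lists, so depth enters only through the number of peaks.

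Grouping followed the sample titles. The 10 genes and the other lists were chosen with earlier results of these data known. Genes, windows and percentiles are as described in the report, computed with Python 3.11.15, pandas 2.3.3 and NumPy 2.4.6, and drawn with Matplotlib 3.10.9. The overlap, ranking and joining steps were checked on simulated data. No test was made, because 1 list per group leaves no replicate. Of the other pathway genes the text names those without a peak and, per mark and comparison, the 3 with the largest called difference. AKT1 and H19 could not be placed. Sequences of these genes were not used here.

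Alternatives were a strict threshold (both a fold enrichment of 5 and a −log10 p of 10 reached), peaks joined across gaps under 1 kb, a narrower window (1 kb), the 3 kb around gene ends only, ranking by −log10 p, equal numbers of top peaks, 50% of a peak inside the window, a call at 20 points, and protein-coding genes as background. Counting only peaks at the main H3K4me3 region (the highest H3K4me3 peaks of the 3 tissues together) was added after seeing the data.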

Additional observations from a re-analysis of the deposited data

How the results depend on the processing

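No paired analysis was possible because both replicates of every group were pooled before peak calling, and for the same reason no replicate could be left out. None of the 30 called differences of single genes changed direction under any alternative. All 30 stayed called with joined peaks, with a window of 1 kb and with 50% of the peak inside the window. The strict threshold ended 9 calls, the gene ends 6, ranking by −log10 p 5, and equal numbers of top peaks and the main H3K4me3 region 2 each. Of the other 30 differences, the strict threshold brought 16 past the call, joined peaks 4, equal numbers of top peaks 3 and ranking by −log10 p 1. Under the strict threshold these included H3K27ac at IGF1R (−21.9 points, GD15M_CM minus CD15M_CM) and at IGFBP7 (−51.6 points, GD15M_CM minus GD15M_LM). The IGFBP7 value arose because the highest GD15M_CM peak, with a fold enrichment of 4.87, just missed the threshold and the gene counted as 0. Without the threshold the IGFBP7 percentiles were 84.7 in GD15M_CM and 90.4 in GD15M_LM. IGF1 has no peak within 3 kb of its ends, so its calls were lost there by construction.

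The strict threshold left 2 genes with an H3K27ac peak in GD15M_CM, 4 in GD15M_LM and 5 in CD15M_CM, and the median H3K27ac percentiles became 0, 0 and 2.13. The H3K4me3 medians became 43.2, 58.3 and 49.6, ranked among the strict peaks only. Joining peaks gave H3K4me3 medians of 59.7 in GD15M_CM and 66.3 in CD15M_CM. Equal numbers of top peaks lowered the H3K27ac median of GD15M_CM to 59.6, and gene ends that of CD15M_CM to 69.3.

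Counts of genes called moved as follows. For H3K4me3 higher in GD15M_CM than in CD15M_CM, the count became 3 with the strict threshold, 2 with joined peaks and 0 at 20 points, and in the opposite direction 1 at 20 points. Higher in GD15M_CM than in GD15M_LM, it became 1 by −log10 p and 0 at 20 points, and in the opposite direction 1 at 20 points. For H3K27ac, genes higher in GD15M_CM numbered 1 against CD15M_CM and 1 against GD15M_LM with the strict threshold, and those higher in CD15M_CM 2 at 20 points. Genes higher in GD15M_LM numbered 1 with gene ends, by −log10 p, at the main H3K4me3 region and at 20 points. With the strict threshold GD15M_CM was lowest at 1 gene. Protein-coding genes as background moved the shares called by at most 2.01 percentage points and raised the shares with a peak by 10.9 to 13.7 points.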
